A study of Rattus norvegicus with 6 samples.

Results

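miR-219 and miR-338 are described here at the level of their separate mature arms in the lumbar spinal cord of rats with bone cancer pain. The rows were taken by name, as every row whose identifier begins with rno-miR-219a, rno-miR-219b or rno-miR-338, which gave 6 of the 753 mature miRNAs listed: rno-miR-219a-5p, rno-miR-219a-2-3p, rno-miR-219a-1-3p, rno-miR-219b, rno-miR-338-3p and rno-miR-338-5p. Small RNA of 6 rats was sequenced, with 1 library for each rat and 3 rats in each group. The bone cancer pain group, called BCP, had living Walker 256 breast carcinoma cells placed in the marrow cavity of the left tibia, and the sham group had heat-killed cells of the same line placed in the same way, so both groups carried the injection and cell material. Tissue was the lumbar enlargement on the injected side without meninges, taken on day 14. The rats were female according to the study's methods. The strain is Wistar in the sample labels and Sprague Dawley in the methods, and no age is used here.

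Both miRNAs are known for their part in oligodendrocytes, the glial cells that wrap axons of the brain and spinal cord in myelin. They rise as oligodendrocyte progenitors stop dividing and mature, and they repress transcripts that hold cells in the progenitor state, among them Pdgfra, Sox6 and Hes5. A miRNA is cut from a hairpin precursor whose 5p and 3p arms can each be loaded into an Argonaute protein, where the bases near the 5′ end, the seed, pair with target transcripts, and most published work on these miRNAs concerns miR-219a-5p and miR-338-3p.

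The mature sequences are shown because the arms of 1 hairpin carry different seeds, so the arm that is counted decides which targets a read can be matched to. All were read from RefSeq on the rat assembly GRCr8, with bases 2 to 8 in capitals:

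rno-miR-219a-2-3p: aGAAUUGUggcuggacaucugu

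rno-miR-219a-5p: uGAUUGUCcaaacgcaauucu

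rno-miR-219a-1-3p: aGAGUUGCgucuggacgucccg

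rno-miR-219b: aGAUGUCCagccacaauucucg

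rno-miR-338-5p: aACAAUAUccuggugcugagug

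rno-miR-338-3p: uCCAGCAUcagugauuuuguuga

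The 6 seeds all differed, and 0 of the other miRNAs among the 688 with a RefSeq sequence shared any of them. The 2 3p arms of miR-219a differed at 7 of 22 positions, counted from 1 at the 5′ end with the base of miR-219a-2-3p given first (A4G, U8C, G10U, A17G, U20C, G21C and U22G), and A4G and U8C lie in the seed. These 3p arms can therefore be told apart in a read, whereas the 21 bases of miR-219a-5p stand unchanged in 2 hairpins, so its reads cannot be divided between them. The hairpins are shown with both arms in capitals:

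Mir219-2: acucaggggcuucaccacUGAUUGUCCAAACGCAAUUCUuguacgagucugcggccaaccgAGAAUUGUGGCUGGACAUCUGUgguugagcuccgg

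Mir219a1: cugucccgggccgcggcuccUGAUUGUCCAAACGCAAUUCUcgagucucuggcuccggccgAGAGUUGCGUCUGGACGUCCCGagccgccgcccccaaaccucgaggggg

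Mir338: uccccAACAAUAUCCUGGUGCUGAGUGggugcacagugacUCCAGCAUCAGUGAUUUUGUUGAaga

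Mir219-2 spans chr3:33516504-33516599 on the minus strand, inside the annotated span of Cercam and of the long noncoding RNA LOC120101515. Mir219a1 spans chr20:4831580-4831689 on the plus strand, between the protein-coding genes Hsd17b8 and Ring1. Mir338 spans chr10:105796342-105796407 on the minus strand, inside the annotated span of Aatk, a kinase gene expressed in the nervous system. miR-219b is read from the plus strand at chr3:33516519-33516540, and 20 of its bases are the exact complement of miR-219a-2-3p.

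Total counts lay between 13464349 and 23770677 per library, and 459 of the 753 miRNAs, including all 6 of miR-219 and miR-338, passed the filter on low counts. Unless they are called counts, values below are CPM, the count of a miRNA set against its library's total after edgeR's TMM normalization. In whole tissue, fewer cells of a type and less RNA per cell cannot be told apart.

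1 arm of each miRNA was abundant and the other was scarce. The most abundant was miR-219a-2-3p, which held 1.49% of all counts and ranked 18 by total count. Its level was 15210, 13506 and 12870 CPM in BCP rats 1, 2 and 3, and 16732, 17242 and 14147 CPM in sham rats 1, 2 and 3. The highest value was that of sham rat 2 and the lowest that of BCP rat 3, with BCP rat 1 above sham rat 3, so the groups overlapped. The group means were 13862 ± 1210 CPM in BCP and 16040 ± 1659 CPM in sham (SD, n = 3 each).

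miR-338-5p, the second abundant arm, held 0.562% of all counts and ranked 33. It stood at 5726, 5256 and 4798 CPM in BCP rats 1, 2 and 3, and at 6203, 6569 and 5175 CPM in sham rats 1, 2 and 3. The order of the 6 libraries was the same as that of miR-219a-2-3p except that BCP rat 2 lay above sham rat 3. Means were 5260 ± 464 CPM in BCP and 5983 ± 723 CPM in sham (SD, n = 3 each), and the groups overlapped.

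The opposite arms were read far less often. miR-338-3p ranked 279, with 452, 397 and 437 counts in BCP rats 1, 2 and 3 and 335, 295 and 430 counts in sham rats 1, 2 and 3. In normalized units these were 19.2, 29.2 and 27.6 CPM in BCP and 24.2, 19.4 and 28.8 CPM in sham. BCP rat 1 and sham rat 2 were the 2 lowest libraries, and BCP rat 2 and sham rat 3 were the 2 highest. The means were 25.4 ± 5.41 CPM in BCP and 24.1 ± 4.68 CPM in sham (SD, n = 3 each).

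miR-219a-5p, the arm present in both miR-219a hairpins, ranked 350, with 107, 86 and 99 counts in BCP and 73, 65 and 88 counts in sham. Its levels were 4.54, 6.33 and 6.26 CPM in BCP rats 1, 2 and 3 and 5.26, 4.28 and 5.89 CPM in sham rats 1, 2 and 3. BCP rat 1 and sham rat 2 were again the 2 lowest. The group means, 5.71 ± 1.02 CPM in BCP and 5.14 ± 0.812 CPM in sham (SD, n = 3 each), differed by less than the SD within BCP.

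miR-219a-1-3p, which comes from the Mir219a1 hairpin alone, had 10.0, 8.03 and 10.2 CPM in BCP and 10.2, 10.3 and 8.76 CPM in sham, and its 109 to 236 counts per library exceeded those of miR-219a-5p in all 6 libraries. It ranked 332. The lowest libraries were BCP rat 2 and sham rat 3, and the means of 9.41 ± 1.20 CPM in BCP and 9.75 ± 0.859 CPM in sham (SD, n = 3 each) differed by less than either SD.

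miR-219b, the complementary transcript of the Mir219-2 site, ranked 439 and was read 22, 14 and 20 times in BCP rats 1, 2 and 3 and 12, 21 and 18 times in sham rats 1, 2 and 3. These counts equal 0.933, 1.03 and 1.26 CPM in BCP and 0.865, 1.38 and 1.20 CPM in sham, with the highest and the lowest values both in sham. The miRNAs complementary to miR-338, miR-3065-5p and miR-3065-3p, share 20 bases with miR-338-3p and 19 with miR-338-5p and had at most 2 counts in any library, which is below the 3 counts taken as the limit of detection. Whether the counting used strand is not stated in the sources used here, so a read within the shared bases of a complementary pair is uncertain to that extent.

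**Figure D1:**
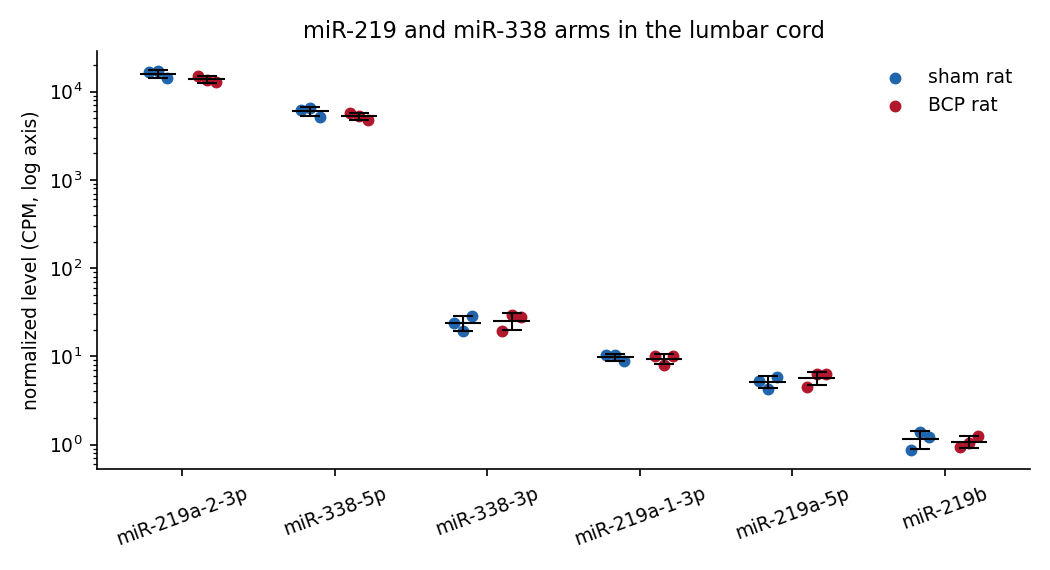
Normalized level of each arm in CPM (log axis) in BCP rats 1 to 3 and sham rats 1 to 3, with 1 point for each library. miR-219a-2-3p and miR-338-5p lie between 4798 and 17242 CPM in all 6 libraries, and the other 4 arms lie between 0.865 and 29.2 CPM.

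The comparison of BCP with sham asks whether the oligodendrocyte miRNAs of the cord changed by day 14 after tumor cells were placed in the tibia. A miRNA counted as changed where its log2 fold change exceeded 0.8 in either direction with a Benjamini-Hochberg adjusted p under 0.05 in edgeR's quasi-likelihood test. By this measure 0 of the 6 arms changed, beside 3.49% of the 459 miRNAs tested. At an unadjusted p below 0.05 the count was also 0 of 6 with edgeR, with DESeq2 and with limma-voom. It was 1 of 6 with edgeR using no filter, total counts or RLE. The share of all miRNAs tested that had such a p is not given here, so these counts have no background beside them. The ranges of the groups overlapped for all 6 arms, whereas 18.5% of the miRNAs tested had groups that did not overlap. The median log2 fold change over the 459 miRNAs tested was -0.0034.

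The abundant arms had negative estimates of similar size. miR-219a-2-3p had a log2 fold change of -0.21 (SE 0.11, 95% interval -0.46 to 0.043) with an adjusted p of 0.474 by edgeR. miR-338-5p had -0.19 (SE 0.12, interval -0.46 to 0.086) with an adjusted p of 0.578 by edgeR. Both intervals include 0.

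The scarce arms had estimates on either side of 0. For miR-219a-5p the log2 fold change was 0.14 (SE 0.21, interval -0.33 to 0.62) with an edgeR adjusted p of 0.812. For miR-338-3p it was 0.069 (SE 0.21, interval -0.41 to 0.55) with an edgeR adjusted p of 0.940. miR-219a-1-3p gave -0.048 (interval -0.40 to 0.31) and miR-219b gave -0.11 (interval -0.76 to 0.54), with edgeR adjusted p of 0.944 and 0.916. All 6 intervals lay within the 0.8 set as the threshold for a change, and the interval of miR-219b, the arm with the fewest counts, was the widest. A p above the threshold does not show that the levels were equal.

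**Figure D2:**
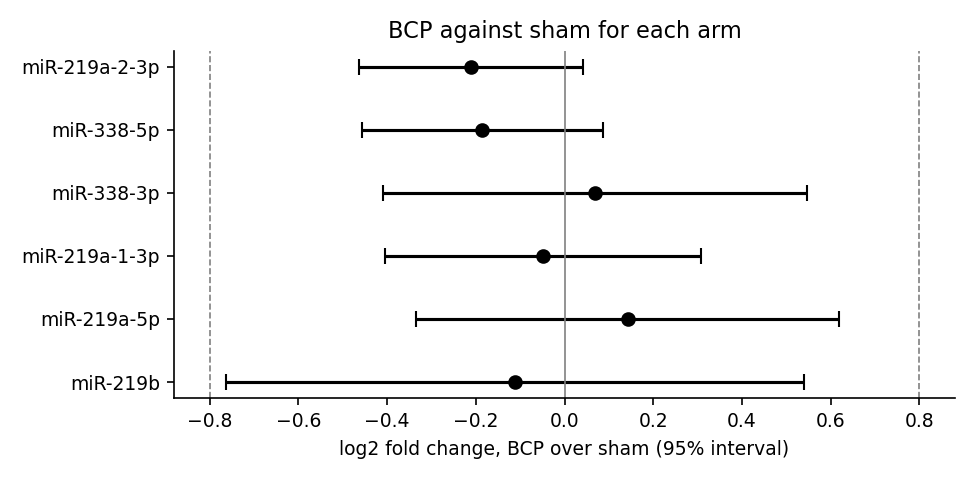
Log2 fold change of BCP over sham for each of the 6 arms, as the edgeR estimate (point) with its 95% interval (line). Every interval includes 0, from the narrowest at miR-219a-2-3p (-0.46 to 0.043) to the widest at miR-219b (-0.76 to 0.54).

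Summed over the 6 rows, the arms held 20970, 18807 and 17713 CPM in BCP rats 1, 2 and 3 and 22976, 23847 and 19367 CPM in sham rats 1, 2 and 3. The means were 19164 ± 1658 CPM and 22063 ± 2375 CPM (SD, n = 3 each), a log2 difference of -0.20 with overlapping groups. This sum was 2.06% of all counts, and 99.8% of it came from miR-219a-2-3p and miR-338-5p, so it carries almost nothing of the arms that most published work concerns.

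The balance between the arms of a hairpin was taken as a ratio of counts within a library, which does not depend on normalization. miR-219a-2-3p was read 3351, 2132 and 2055 times for each read of miR-219a-5p in BCP rats 1, 2 and 3, and 3179, 4033 and 2404 times in sham rats 1, 2 and 3. For the Mir219-2 hairpin alone the ratios could only be higher, because some reads of miR-219a-5p may come from Mir219a1. miR-338-5p was read 299, 180 and 174 times for each read of miR-338-3p in BCP, and 257, 339 and 180 times in sham. In both hairpins BCP rat 1, sham rat 1 and sham rat 2 had the ratios farthest toward the abundant arm.

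As a share of both arms, miR-219a-5p lay between 0.0248% in sham rat 2 (exact binomial 95% interval 0.0191% to 0.0316%) and 0.0486% in BCP rat 3 (0.0395% to 0.0592%). miR-338-3p lay between 0.294% in sham rat 2 (0.262% to 0.330%) and 0.573% in BCP rat 3 (0.520% to 0.629%). The extreme libraries differed by more than these intervals, which cover counting error within a library and not the spread between rats. The study's methods describe no molecular identifiers that would tell copies of a molecule apart, so the counting error itself may be larger.

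Between the groups, neither balance differed by more than the spread among rats. The log2 ratio of miR-219a-5p to miR-219a-2-3p was -11.26 ± 0.39 in BCP and -11.61 ± 0.37 in sham (SD, n = 3 each), a difference of 0.36 with a two-sided exact permutation p of 0.3 (adjusted 0.45 over 3 balances). The log2 ratio of miR-338-3p to miR-338-5p was -7.72 ± 0.44 in BCP and -7.97 ± 0.46 in sham (SD, n = 3 each), a difference of 0.25 with an exact permutation p of 0.5 (adjusted 0.5). With 3 rats against 3 the smallest p that this test can give is 0.1. Among the 162 precursors for which the RefSeq table used here lists both arms and both were tested, which leaves out Mir219a1 and others whose arms it does not both list, 13.6% had balances that did not overlap between the groups, and neither Mir219-2 nor Mir338 was among them.

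Set beside those precursors, both hairpins were strongly one-sided, in opposite directions. The median fold between the arms of a precursor was 17.9, and 45 of the 162 differed by 100-fold or more. Mir219-2, with a mean log2 ratio of 5p to 3p of -11.44, ranked 8 by size. Of the 7 precursors with a larger ratio, Mir128-1 and Mir128-2 leaned to the 3p arm and the others, among them Mir26a and Mirlet7g, leaned to the 5p arm. Mir338 ranked 30 with a mean log2 ratio of 7.84. The SD over the 6 libraries was 0.39 for Mir219-2 and 0.42 for Mir338, beside a median of 0.253 for all 162.

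**Figure D3:**
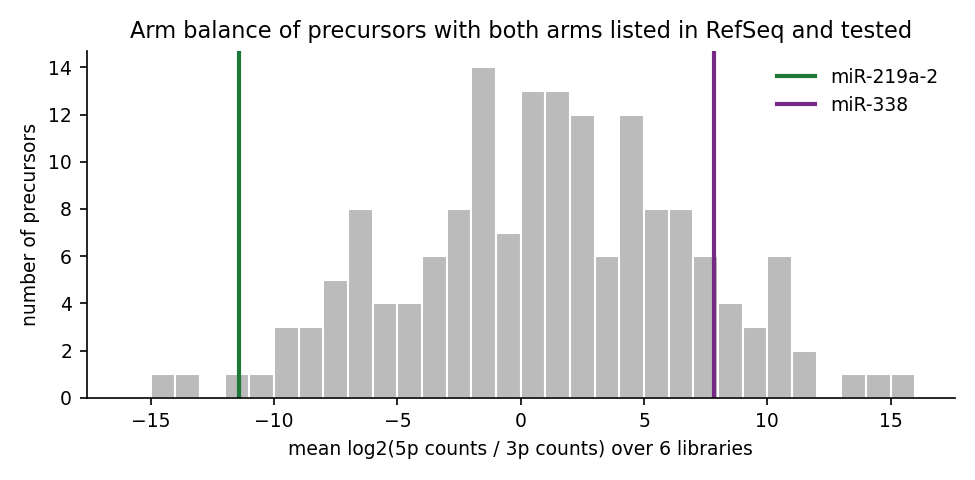
Number of precursors by the mean log2 ratio of 5p to 3p counts over 6 libraries, for the 162 precursors with both arms listed in RefSeq and tested. Mir219-2 at -11.44 lies in the far left tail, toward the 3p arm, and Mir338 at 7.84 lies on the right, toward the 5p arm.

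The arms also differ in annotated length. miR-219a-5p has 21 bases and miR-338-3p has 23, while the other 4 have 22, and the methods describe the known miRNAs as identified by a length that does not reach 23. Annotated miRNAs of 23 bases held 21.4% of the counts of miRNAs with a RefSeq sequence. This length is that of the annotation, and the lengths of the reads themselves are not given by the counts. miR-21-5p, one of the most widely expressed miRNAs, is listed at 0 in all 6 libraries, as are 150 of the 753 rows, and miR-21-5p was chosen for naming after its value was seen. The part of the counting step in the level of the scarce arms was not tested.

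Across the 6 libraries the 2 abundant arms varied together, and so did miR-219a-5p and miR-338-3p among the scarce arms, whereas miR-219a-1-3p and miR-219b each had another pair of lowest libraries. miR-219a-2-3p was read 2.66, 2.57 and 2.68 times for each read of miR-338-5p in BCP and 2.70, 2.62 and 2.73 times in sham, a ratio chosen after the values were seen. The highest of these ratios was 1.06 times the lowest, although the hairpins lie on different chromosomes. miR-338-3p was read 4.22, 4.62 and 4.41 times for each read of miR-219a-5p in BCP and 4.59, 4.54 and 4.89 times in sham, where the highest was 1.16 times the lowest. The same comparison gave 1.96 for the arms of Mir219-2 and 1.95 for the arms of Mir338, so the ratios of these 2 pairs, abundant with abundant and scarce with scarce, were steadier than those within a hairpin. The log2 ratio of miR-219a-5p to miR-338-3p was 0.081 higher in BCP, with an exact permutation p of 0.3 (adjusted 0.45).

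Relations between 3 pairs of arms were computed on log2(CPM + 1) over the 6 libraries, with exact permutation tests and Benjamini-Hochberg adjustment over them. miR-219a-5p rose with miR-338-3p, with a Pearson r of 0.973 (exact p 0.00972, adjusted 0.0292) and a Spearman rho of 0.886 (exact p 0.0333, adjusted 0.05). Without BCP rat 1 and sham rat 2, the 2 libraries farthest from the median, r was 0.880 with an exact p of 0.125 over the 4 libraries left. miR-219a-5p ran against miR-219a-2-3p, with r of -0.843 (exact p 0.0486, adjusted 0.0729) and rho of -0.886 (exact p 0.0333, adjusted 0.05), and it did not pass after adjustment of r. Without the same 2 libraries r was -0.970 (exact p 0.0833). For miR-338-3p and miR-338-5p r was -0.757 (exact p 0.104) and rho was -0.6 (exact p 0.242), and without those libraries r was -0.795 (exact p 0.25).

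**Figure D4:**
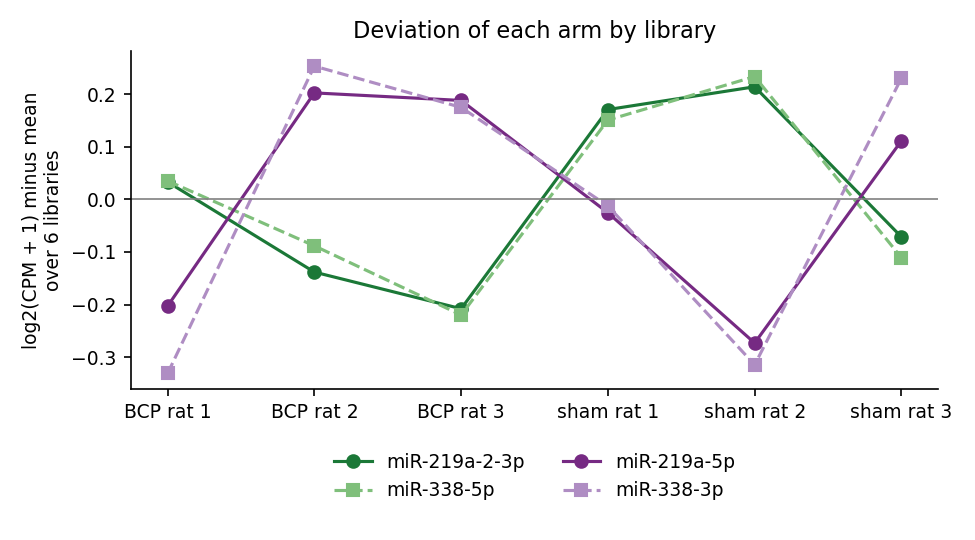
Deviation of log2(CPM + 1) from its mean over the 6 libraries, for 4 of the arms in each library, with lines that only join the points of 1 arm. miR-219a-2-3p and miR-338-5p trace almost the same line, and miR-219a-5p and miR-338-3p have their lowest points in BCP rat 1 and sham rat 2.

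The miRNAs most like each arm were those with the smallest root mean square difference between centred log2(CPM + 1) profiles over the 6 libraries, among 458 others. miR-338-5p was the nearest to miR-219a-2-3p and the reverse, at 0.0288 beside medians over the 458 of 0.206 from miR-219a-2-3p and 0.211 from miR-338-5p, a pair added after the values were seen. Other miRNAs were almost as near, with miR-99b-3p (0.0295), miR-195-3p (0.0316), miR-181b-5p (0.0320), miR-330-3p (0.0343) and miR-455-3p (0.0355) next from miR-219a-2-3p. From miR-338-5p the next were miR-99b-5p (0.0290), miR-330-3p (0.0378), miR-181b-5p (0.0381), miR-382-5p (0.0387) and let-7b-3p (0.0388). For miR-219a-5p the nearest 5 were miR-379-3p (0.0250), miR-143-3p (0.0496), miR-148b-5p (0.0570), miR-26b-5p (0.0630) and miR-27b-3p (0.0667), and miR-338-3p ranked 11 at 0.0766, beside a median of 0.268. For miR-338-3p the nearest were miR-29b-3p (0.0559) and miR-218a-5p (0.0624), followed by miR-219a-5p, and then by miR-126a-3p, miR-379-3p and miR-411-5p, beside a median of 0.315, with miR-219b at rank 163 and miR-219a-1-3p at rank 260. The other arm of the same hairpin was far down each list. miR-219a-5p ranked 331 from miR-219a-2-3p, and miR-338-3p ranked 358 from miR-338-5p.

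The 2 libraries in which miR-338-3p and miR-219a-5p were low crossed the groups, 1 being BCP and 1 sham. In log2(CPM + 1), the mean of BCP rat 1 and sham rat 2 lay below that of the other 4 libraries for miR-338-3p (a shift of -0.48) and for miR-219a-5p (-0.36). It lay above them for miR-338-5p (0.20), miR-219a-2-3p (0.19), miR-219a-1-3p (0.12) and miR-219b (0.041). This split was chosen after the values were seen, and the added 1 CPM makes the shifts of low arms look smaller than they are. These were the 2 lowest libraries for 95 of the 459 miRNAs tested (20.7%) and the 2 highest for 66 (14.4%).

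The same shift moved with base composition over the table. Across the 427 tested miRNAs with a RefSeq sequence, which share the same 6 libraries and are not independent, Pearson's r of the shift with the share of G and C was 0.622. The median shift was -0.49 for 71 miRNAs with under 40% G and C, -0.046 for 153 with 40 to 50%, 0.10 for 135 with 50 to 60% and 0.21 for 68 with 60% and over. miR-219a-5p has 38.1% and miR-338-3p 39.1%, whereas miR-219a-2-3p and miR-338-5p both have 45.5% and miR-219a-1-3p has 63.6%. The arms that moved together are therefore also alike in base composition. The shifts of miR-219a-2-3p (0.19) and miR-338-5p (0.20) lay above the median of -0.046 of their class. The part of base composition in the relations between arms was not tested. A comparison of BCP rats 2 and 3 with sham rats 1 and 3 alone was added after the values were seen. In it the balance differed by 0.40 for Mir219-2 and 0.28 for Mir338. There 0 of the 6 arms passed the thresholds, beside 17 of the 462 miRNAs tested.

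**Figure D5:**
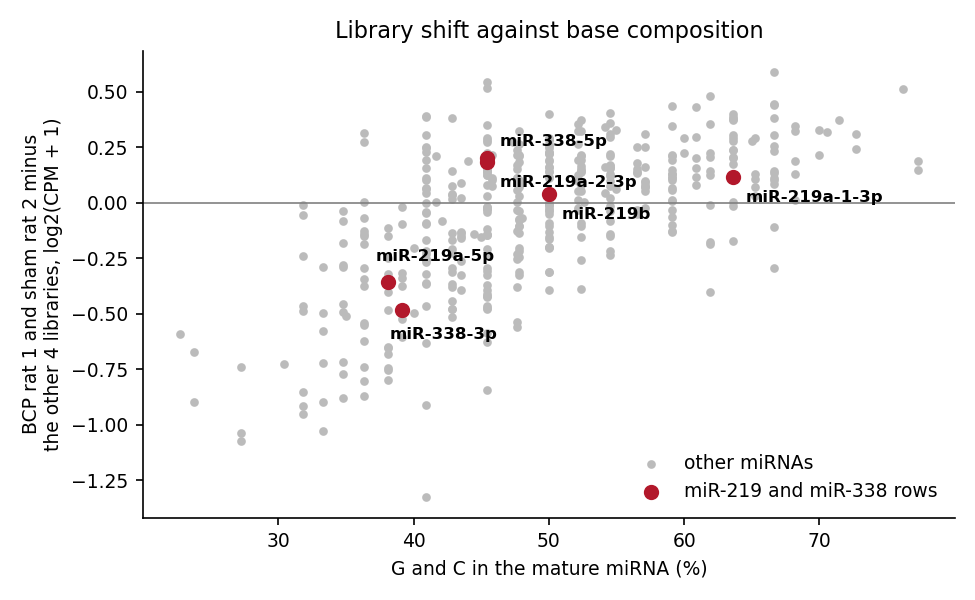
Shift of BCP rat 1 and sham rat 2 from the other 4 libraries, as a difference in mean log2(CPM + 1), against the share of G and C in the mature sequence in percent, for 427 miRNAs with the 6 arms marked. The shift runs from a median of -0.49 under 40% G and C to 0.21 at 60% and over. miR-338-3p (-0.48) and miR-219a-5p (-0.36) belong to the class under 40%.

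Other miRNAs with a known part in the oligodendrocyte lineage, a list of 16 that includes members of the miR-17-92 cluster, which promotes progenitor division, and miR-23a, which acts on lamin B1, were all tested. Of these, 3 passed the thresholds as higher in BCP and 0 as lower, beside 3.49% of all miRNAs tested, and the list was written with results of these data known. The median log2 fold change of the list was 0.25, with 10 above 0 and 6 below, and 7 of the 16 had groups that did not overlap, beside 18.5% of all tested. The count fell to 1 without BCP rat 2, without BCP rat 3 or without sham rat 1.

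miR-146a-5p, a miRNA induced by NF-κB that dampens inflammatory signalling in many cell types, rose from 1312 ± 198 CPM in sham to 4372 ± 309 CPM in BCP (SD, n = 3 each), with a log2 fold change of 1.74 and an edgeR adjusted p of 2.64e-04. miR-17-5p, a member of the miR-17-92 cluster whose sequence is close to that of its paralogs, rose from 116 ± 12.6 to 221 ± 33.9 CPM (log2 fold change 0.94, edgeR adjusted p 0.0128). miR-27a-3p rose from 976 ± 82.5 to 1852 ± 420 CPM (log2 fold change 0.92, edgeR adjusted p 0.0228). These 3 are found in many cells besides oligodendrocytes. The most abundant members of the list, miR-9a-5p (0.18, edgeR adjusted p 0.506) and miR-27b-3p (0.10, edgeR adjusted p 0.747), did not pass.

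Marker miRNAs of other cells in the tissue were read in the same libraries. The 4 neuronal miRNAs (miR-124-3p, miR-128-3p, miR-137-3p and miR-129-5p) had 0 calls, and their summed level was 58641 to 68896 CPM in BCP and 62437 to 76952 CPM in sham. The endothelial miR-126a arms summed to 13531 to 20261 CPM in BCP and 14240 to 19846 CPM in sham, and the mural miR-143-3p and miR-145-5p to 7768 to 10111 and 7177 to 9165 CPM, with 0 calls in either list. miR-223-3p, a marker of neutrophils and other myeloid cells, rose from between 0.658 and 2.31 CPM in sham to between 5.57 and 7.93 CPM in BCP (log2 fold change 2.13, edgeR adjusted p 0.0190), a call that was lost without BCP rat 2, while miR-142-3p and miR-142-5p are listed at 0. The erythroid miR-451-5p and miR-144-3p are listed at 0 as well, and 3 muscle miRNAs (miR-1-3p, miR-133a-3p and miR-206-3p) summed to 96.7 to 103 CPM in BCP and 82.7 to 106 CPM in sham with 0 calls. The 4 HOX-cluster miRNAs used to check the lumbar origin summed to 21062 to 24533 CPM in BCP and 19509 to 21671 CPM in sham, with 0 calls, led by miR-10a-5p. Their part in the levels of miR-219 and miR-338 was not tested.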

How the data were processed

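Small RNA libraries of 3 BCP and 3 sham rats were analysed from the raw read counts per mature miRNA that the authors deposited, without normalization. Per the labels, reads were mapped to the rat genome Rnor 6.0 with Bowtie2 2.2.3. How reads matching several miRNAs were assigned is not given in the sources used here. In R 4.3.3, edgeR 4.0.16 (filterByExpr with a minimum count of 10, TMM, quasi-likelihood test, Benjamini-Hochberg adjustment over 459 miRNAs) compared the groups. Single values were compared with two-sided exact permutation tests (scipy 1.17.1), and the pseudocount was 1. Alternatives used DESeq2 1.42.0, limma 3.58.1, total counts, RLE, other filters, the replicate block and leaving out each rat. The scripts were tested on simulated data. Sequences and coordinates are those of RefSeq on GRCr8, another assembly than the authors', matched by name for 688 of 753 miRNAs. The p-values measure the spread between these rats, and none was a copy of another, since the chi-square between same-group libraries, divided by its degrees of freedom, was 62.9 or more. The members, lists and tests were chosen with earlier results of these data known. Named miRNAs were the 6 members, the 5 nearest profiles of miR-219a-5p and miR-338-3p, the members of each list that passed and its 2 most abundant, and any miRNA sharing a seed with a member, of which there were 0. Further list members were named to say what a list holds, the miR-3065 arms as complements of miR-338, some precursors as examples of arm balance, and miR-21-5p and the nearest profiles of the abundant arms after their values were seen. miR-486 could not be matched by name and was not analysed here.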

Additional observations from a re-analysis of the deposited data

How the results depend on the processing

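The log2 fold changes of the 6 arms kept their direction in all 48 combinations with another filter, normalization, test or the replicate block, with a smallest adjusted p of 0.319. Correlations of deviations were 0.109, -0.452 and 0.711 within replicate numbers, with a mean of -0.0659 between them. So few values cannot show whether replicate numbers pair the rats. At an unadjusted p below 0.05 the count was 1 of 6 with no filter, total counts or RLE. It was also 1 of 6 without BCP rat 1, and for BCP rats 2 and 3 against sham rats 1 and 3. With the replicate block, miR-219a-2-3p had -0.21 (edgeR adjusted p 0.399) and the lineage list had 3 calls. With that block 0 arms passed, beside 18 of the 459 miRNAs tested. Leaving out each rat changed the sign in 5 of 36 cases: the range was -0.073 to 0.22 for miR-338-3p, -0.15 to 0.052 for miR-219a-1-3p and -0.30 to 0.033 for miR-219b. The others kept their sign, at 0.017 (without sham rat 2) to 0.28 for miR-219a-5p, -0.31 to -0.12 for miR-338-5p and -0.33 to -0.16 for miR-219a-2-3p. Without sham rat 3, miR-219a-2-3p had -0.33 (edgeR adjusted p 0.0827) and miR-338-5p -0.31 (0.0990), the 2 arms then at an unadjusted p below 0.05. For BCP rats 2 and 3 against sham rats 1 and 3, added after seeing the data, miR-219b had 0.11. Leaving out each rat, the arm balance difference ranged from 0.17 to 0.58 for Mir219-2 and from 0.031 to 0.50 for Mir338, the lineage list from 1 to 3 calls, and the lists of other cell types from 0 to 1. With total counts r of miR-219a-5p with miR-219a-2-3p was -0.779 (exact p 0.0819). Without the 2 libraries farthest from the median it was -0.970 (exact p 0.0833), and r of miR-219a-5p with miR-338-3p was 0.880 (exact p 0.125). Leaving out rats also lowers the number of libraries, and the cause of these changes was not tested. The 12 to 22 counts of miR-219b and 65 to 107 of miR-219a-5p limit what these libraries can show.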
